A study of Mus musculus with 15 samples.

Results

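Crypt stem cell markers other than Lgr5 were followed in mouse intestinal organoids. The set held 9 genes of the 43629 in the count table, chosen by name as markers in common use: Ascl2, Olfm4, Smoc2 and Cdca7 for the columnar cells at the crypt base, Lrig1, Hopx and Bmi1 for reserve or more quiescent cells, and the surface proteins Prom1 and Cd44. All 9 were in both the count table and the FPKM table (FPKM, fragments scaled by transcript length and library depth), and all 9 passed the filter on low values in every comparison below.

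Organoids are epithelial cultures grown from crypts, here of the proximal small intestine of mice on a mixed C57B6/129 background. WT comprised 5 libraries in ENR medium (EGF, Noggin and R-spondin), of which 4 were Apc flox/flox lines numbered 1, 2, 5 and 6 and 1 was a dox-naive culture, never given doxycycline to induce its Cas9. The Apc group held 4 libraries, the same lines as Apc delta/delta, in EN medium, which lacks R-spondin. P-Rspo3 held 4 libraries, named 4d, 15d, M and F, of cultures carrying the Ptprk-Rspo3 inversion, also in EN medium. The inversion was made with paired guides and Cas9 expressed from a Col1a1 transgene (c3GIC9) under R26-rtTA, in bulk cultures that were then selected by withdrawing RSPO1, so each is a polyclonal pool. Lgr5-CreER and Apc flox are among the alleles the mice were typed for, and how Apc was deleted in culture is not given in the sources used here, nor are the ages of the donor animals. WT and both mutant groups differ in medium, so medium and genotype cannot be told apart in those comparisons, whereas Apc and P-Rspo3 share it. Neither the P-Rspo3 cultures nor the dox-naive one are of the numbered flox lines. Apc and P-Rspo3 thus differ in line and in how the change was made, and neither can be told apart from genotype. Nothing in the labels says that libraries came from separate animals, so the p-values measure the spread between these libraries. Totals ran from 28902729 to 35528495 counts per library.

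The labels were checked first. Rspo3, the R-spondin gene that the inversion places under the Ptprk promoter, was counted 539 to 1079 times in P-Rspo3 libraries, 0 or 1 times in WT and 7 to 57 times in Apc. Apc itself had an FPKM of 28.3 to 30.5 in Apc, 11.6 to 22.3 in WT and 12.8 to 20.4 in P-Rspo3. These whole-gene values do not check the deletion, since reads outside the deleted part are counted too. Epithelial markers (Epcam, Cdh1, Krt8, Krt18, Cdx1, Cdx2 and Vil1) summed to an FPKM of 1400 to 1634 in WT, 1560 to 1886 in Apc and 1338 to 1633 in P-Rspo3.

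At the crypt base, columnar stem cells divide between Paneth cells, which supply Wnt and Notch ligands. R-spondins strengthen the Wnt signal by keeping Frizzled receptors at the membrane, and loss of Apc switches the same pathway on downstream of the receptors. Ascl2 is a basic helix-loop-helix factor under Wnt control, and Olfm4 is a secreted glycoprotein of columnar cells that depends on Notch signals, whereas Hopx, Bmi1 and Lrig1 are known from slowly cycling cells higher in the crypt, though their transcripts are also found in columnar cells.

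Promoters (250 bases before to 50 after a RefSeq transcript start) are shown for the member that fell most in Apc and for the members with the largest increases on counts, from RefSeq on GRCm38.p6, 5′ to 3′ on the strand of the gene. Capitals mark TGGGAA or its reverse complement TTCCCA, the core letters bound by RBPJ, the DNA-binding partner of Notch.
Olfm4: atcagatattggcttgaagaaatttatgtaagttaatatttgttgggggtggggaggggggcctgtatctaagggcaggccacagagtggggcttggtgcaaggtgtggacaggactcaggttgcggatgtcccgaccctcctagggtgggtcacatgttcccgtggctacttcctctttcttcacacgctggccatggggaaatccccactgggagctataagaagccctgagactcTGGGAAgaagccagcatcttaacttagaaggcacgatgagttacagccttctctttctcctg
Cd44: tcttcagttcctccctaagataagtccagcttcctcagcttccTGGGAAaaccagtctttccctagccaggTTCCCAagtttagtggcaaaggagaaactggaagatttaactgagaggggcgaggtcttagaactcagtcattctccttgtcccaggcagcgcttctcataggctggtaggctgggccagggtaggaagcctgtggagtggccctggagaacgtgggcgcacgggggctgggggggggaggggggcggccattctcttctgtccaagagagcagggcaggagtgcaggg
Ascl2: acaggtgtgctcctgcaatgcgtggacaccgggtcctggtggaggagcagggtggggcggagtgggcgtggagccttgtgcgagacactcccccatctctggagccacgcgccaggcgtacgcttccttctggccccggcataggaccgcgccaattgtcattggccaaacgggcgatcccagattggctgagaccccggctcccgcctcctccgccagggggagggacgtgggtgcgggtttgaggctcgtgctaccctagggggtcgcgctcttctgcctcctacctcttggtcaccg
They lie at chr14:80000052-80000351 on the plus strand for Olfm4, chr2:102901616-102901915 on the minus strand for Cd44 and chr7:142969215-142969514 on the minus strand for Ascl2. The window of Olfm4 lies inside the gene's annotated span, which begins upstream at 79984081, so it is not the window at the first base of that span. The GC content was 52.3%, 58.0% and 67.0%, against a median of 52.7% over all 32851 promoters of the table. Of the 9 markers, 8 matched by symbol with 10 promoters in all. The RBPJ letters, searched on both strands, were found in 5 of the 10, those of Bmi1, Cd44, Cdca7, Olfm4 and 1 of the promoters of Prom1, against 25.6% of all promoters, and Cd44 held them at 2 places. The TCF/LEF letters CTTTGAT or ATCAAAG, which the Wnt pathway's DNA-binding factors recognize, were found in 0 of the 10, against 3.73% of all promoters. These windows are short, and a match of letters is not a binding site.

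The question of the first comparison was how the stem cell markers stood after loss of Apc. In Apc, 8 of the 9 markers were higher than in WT and 1, Olfm4, was lower, each at an adjusted p under 0.05 from edgeR's quasi-likelihood test on counts with Benjamini-Hochberg adjustment over 16749 genes. That threshold was passed by 59.1% of all genes tested, so passing it says little about a marker. With a log2FC above 1 or below -1 also required, which is what "called" means below, 5 markers were called higher (Ascl2, Smoc2, Lrig1, Prom1 and Cd44) and Olfm4 was called lower, where 12.2% of all genes were called higher and 14.1% lower. The median log2FC was 1.21 over the 9 markers and 0.0006 over all genes. The FPKM of Apc and WT libraries did not overlap for any of the 9, as for 54.5% of the genes tested. In bulk RNA, a larger share of cells of a type and more RNA per cell cannot be told apart.

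**Figure D1:**
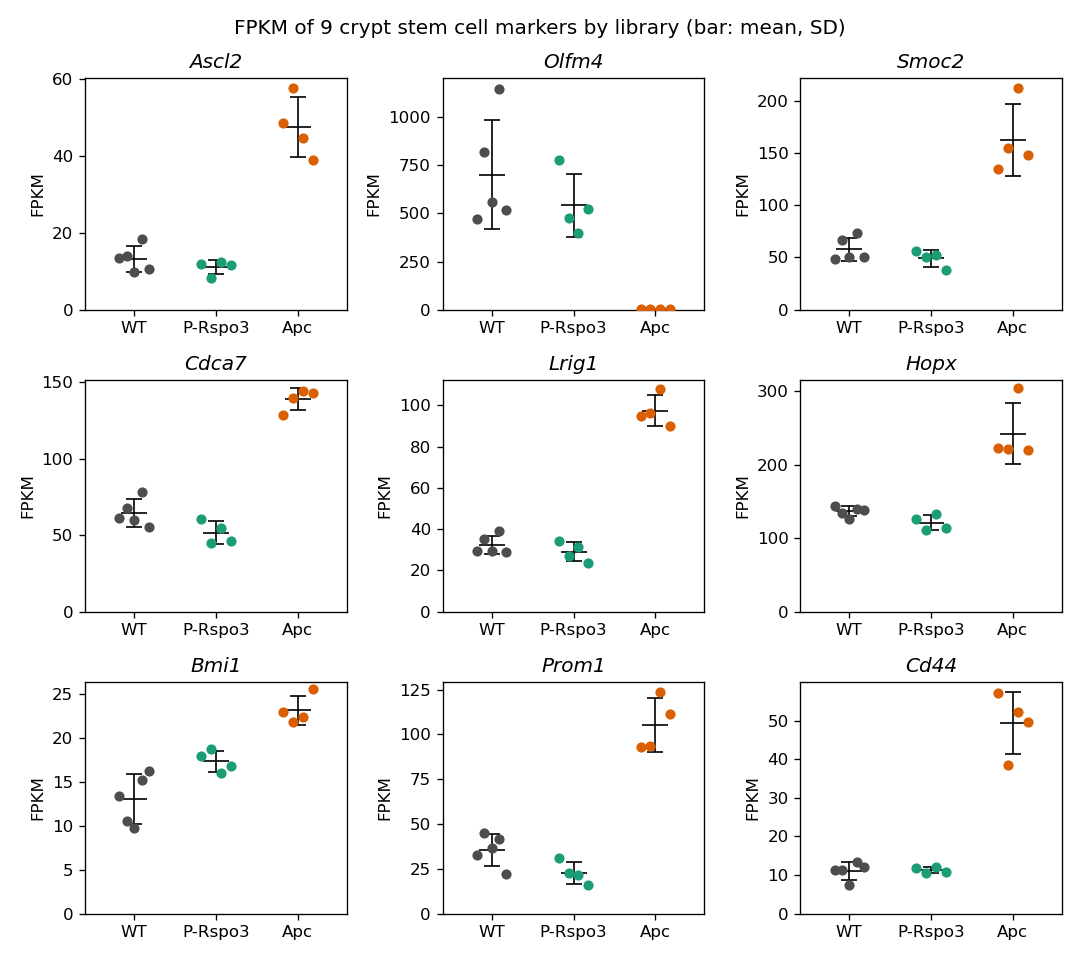
FPKM of each marker (vertical axis, linear and starting at 0) in the 5 WT, 4 P-Rspo3 and 4 Apc libraries, 1 point a library, with the mean as a long bar and the SD as whiskers. Apc libraries lie above all WT libraries for 8 markers and near 0 for Olfm4, while P-Rspo3 libraries overlap WT for all 9.

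Olfm4 had the largest change of the set. Its FPKM was 472, 820, 558, 1146 and 516 in WT lines 1, 2, 5, 6 and the dox-naive library, and 0.272, 0.835, 2.10 and 0.640 in Apc lines 1, 2, 5 and 6. The lowest WT library thus stood far above the highest Apc library, and Apc line 5 kept the most. As counts, WT held 31442 to 81939 reads on the gene and Apc 18 to 148. The log2FC was -9.78 (standard error 0.63, 95% interval -11.16 to -8.39, adjusted p = 4.03e-07), 877-fold lower. Without Apc replicate 5 the log2FC was -10.52. By mean FPKM Olfm4 ranked 115 among all genes in WT (702.5 ± 282, SD, n = 5) and 12334 in Apc (0.963 ± 0.796, SD, n = 4). Olfm4 (ENSMUSG00000022026) lies on the plus strand of chromosome 14 of GRCm38 from 79984081 to 80023139, and the only annotated gene that overlaps it, Gm6999, had 0 to 2 counts per library.

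Ascl2 moved the other way. Its FPKM was 13.4, 13.8, 9.71, 18.5 and 10.6 in WT lines 1, 2, 5, 6 and the dox-naive library, and 48.6, 57.6, 44.7 and 38.8 in Apc lines 1, 2, 5 and 6. Line 6 had the highest value of WT and the lowest of Apc, and the groups were still separated by a wide gap. Ascl2 was called higher, and its log2FC was 1.54 (standard error 0.17, adjusted p = 2.04e-05). It lies on the minus strand of chromosome 7 from 142966829 to 142969264.

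Smoc2, a secreted calcium-binding matrix protein of the SPARC family, had an FPKM of 48.1, 66.7, 50.7, 73.1 and 50.3 in WT in the same order and 135, 155, 213 and 148 in Apc. Line 5 was the highest of the Apc libraries, and no WT library came near the lowest of them. The log2FC of Smoc2 was 1.21 (standard error 0.16, adjusted p = 6.29e-05). Cdca7, which binds the chromatin remodeller Hells and brings it to DNA, had an FPKM of 61.2, 68.1, 59.8, 78.2 and 55.3 in WT and 128, 140, 144 and 143 in Apc. The Apc libraries were close to each other and all above WT. Its log2FC of 0.79 (standard error 0.09, adjusted p = 2.39e-05) was under the fold threshold on counts. On log2(FPKM + 1) with limma it was 1.10 and was called.

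For all 9 markers the ratio of mean FPKM, Apc to WT, was larger than the fold on TMM counts, and the cause of these gaps was not tested. TMM, the normalization used for counts, scales libraries so that most genes stay level, and its factors were 1.11 to 1.14 in Apc and 0.885 to 0.941 in WT. On log2(FPKM + 1) the median of all genes was 0.17 above WT. The ratio of mean FPKM was 3.59 for Ascl2, 2.82 for Smoc2 and 2.15 for Cdca7, where the folds on counts were 2.92, 2.32 and 1.73. The split of calls over all genes was 2048 higher and 2364 lower with edgeR on counts, 1415 and 1132 with limma on log2(FPKM + 1) and 2570 and 1717 with limma on log2(FPKM + 0.1), settings that differ in the test and the added constant as well as in the scale.

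Of the reserve cell markers, Lrig1 was called higher, while Hopx and Bmi1 passed the adjusted p at folds under the threshold. Lrig1, a membrane protein that restrains ErbB receptors, had an FPKM of 29.2, 35.1, 29.2, 39.0 and 28.8 in WT and 94.9, 96.5, 108 and 90.1 in Apc. Both groups were tight, with the Apc libraries all far above WT. Its log2FC was 1.28 (standard error 0.10, adjusted p = 1.47e-06). The end of Lrig1 overlaps Slc25a26 on the other strand over 144 bases, a gene with 200 to 364 counts, and whether the counting used strand is not given.

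Hopx, a small homeodomain protein that does not itself bind DNA, had an FPKM of 144, 134, 126, 140 and 139 in WT and 223, 222, 305 and 221 in Apc. Apc line 5 stood apart from the other Apc libraries, which were nearly equal, and all 4 were above WT. The log2FC of Hopx was 0.62 (standard error 0.09, adjusted p = 0.000127), and 0.52 without Apc replicate 5. The antisense gene Hopxos, which overlaps it, had 28 to 129 counts.

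Bmi1, a subunit of the Polycomb repressive complex that ubiquitinates histone H2A, had an FPKM of 13.4, 10.5, 9.80, 15.3 and 16.3 in WT and 23.0, 21.8, 22.4 and 25.6 in Apc. The dox-naive library was the highest of WT and still below every Apc library. On counts the log2FC was 0.38 (standard error 0.13, 95% interval 0.09 to 0.68, adjusted p = 0.03). This passed the adjusted p only just: it was 0.0673 without WT replicate 2, 0.056 without WT replicate 5, and 0.0713, 0.0749 and 0.051 without Apc replicates 1, 5 and 6. Over the 10 other alternative fits the log2FC of Bmi1 ran from 0.37 to 0.85, each at an adjusted p under 0.05. Its ratio of mean FPKM was 1.78, where the fold on counts was 1.30.

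The surface markers rose together in Apc. Prom1, a cholesterol-binding protein of membrane protrusions, had an FPKM of 32.9, 44.7, 36.5, 41.8 and 22.1 in WT and 92.8, 93.6, 124 and 111 in Apc. The dox-naive library was the lowest of WT, and every Apc library was above every WT one. Its log2FC was 1.30 (standard error 0.18, adjusted p = 8.69e-05). Cd44, the receptor for hyaluronan and a known Wnt target, had an FPKM of 11.2, 11.3, 7.35, 13.3 and 11.95 in WT and 57.2, 38.4, 52.3 and 49.7 in Apc. Even the lowest Apc library, line 2, was well above the highest WT library. Cd44 had the largest increase of the 9, a log2FC of 1.92 (standard error 0.15, adjusted p = 1.59e-06) and a ratio of mean FPKM of 4.48. Counts and FPKM here are per gene and do not separate the splice variants of Cd44.

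Lgr5, the receptor for R-spondins that defines columnar cells, stands beside them as a reference. It had an FPKM of 19.7, 37.5, 29.2, 38.05 and 25.1 in WT and 76.8, 103, 122 and 96.9 in Apc, a log2FC of 1.45 (standard error 0.19, adjusted p = 6.5e-05). Its increase was thus of the size seen for Ascl2, Smoc2, Lrig1 and Prom1, with overlapping errors.

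**Figure D2:**
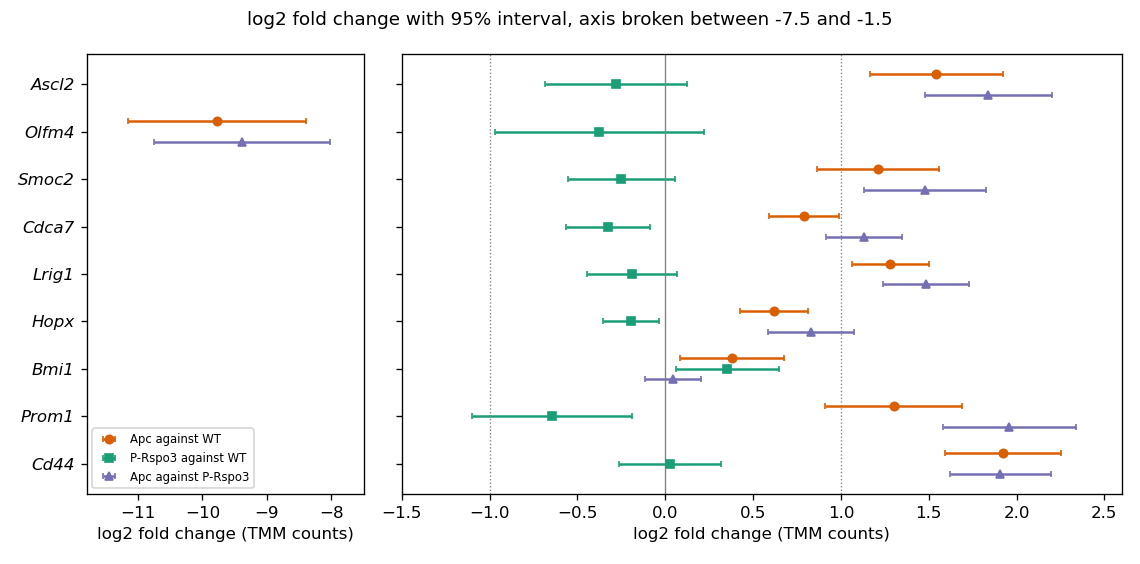
log2 fold change on TMM counts (horizontal axis, with a gap in it left of the dotted lines) with its 95% interval for each marker in 3 comparisons, dotted lines at -1 and 1. Olfm4 stands alone on the left in both comparisons with Apc, Bmi1 lies nearest 0 in Apc against P-Rspo3, and all P-Rspo3 against WT estimates lie between -0.64 and 0.35.

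The same 4 lines were sequenced before and after the deletion, so the change can be read within each line. Each of the 9 markers moved in 1 direction in 4 of 4 lines. That follows from the FPKM ranges, which did not overlap for any of the 9, as for 54.5% of the genes tested. The ratio of FPKM, Apc to WT of the same line, was 2.10 to 4.60 for Ascl2, 2.02 to 4.21 for Smoc2, 1.83 to 2.41 for Cdca7 and 2.31 to 3.70 for Lrig1. For Ascl2, Smoc2, Cdca7 and Lrig1 the smallest ratio was that of line 6, which had the highest WT values. It was 1.54 to 2.42 for Hopx, 1.68 to 2.28 for Bmi1, 2.09 to 3.38 for Prom1 and 3.39 to 7.12 for Cd44. Olfm4 was 265-fold lower in line 5 and 1790-fold lower in line 6, the ends of its range.

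**Figure D3:**
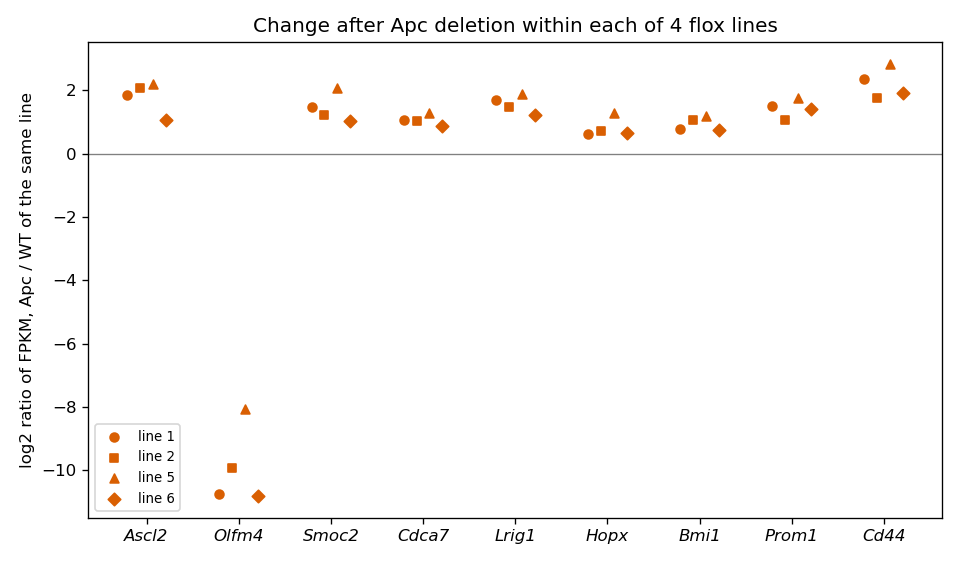
log2 ratio of FPKM, Apc over WT of the same line (vertical axis), for each marker in lines 1, 2, 5 and 6, 1 symbol a line. Every line lies above 0 for 8 markers, and for Olfm4 the 4 lines lie between -10.81 and -8.05.

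The order of levels within a group changed accordingly. In WT, Olfm4 led with a mean FPKM of 702.5, followed by Hopx with 137 ± 6.78 (SD, n = 5), then Cdca7 and Smoc2, Prom1 and Lrig1, and last Ascl2, Bmi1 and Cd44. Neighbours inside each of these last groupings overlapped between libraries, and the steps between groupings did not. In Apc, Hopx led with 243 ± 41.8 (SD, n = 4), followed by Smoc2 and Cdca7, Prom1 and Lrig1, Cd44 and Ascl2, then Bmi1 with 23.2 ± 1.66, and Olfm4 was last. The order in P-Rspo3 was that of WT for the first places, with Olfm4 at 543 ± 164 (SD, n = 4) and Hopx at 121 ± 10.5. After these came Cdca7 and Smoc2, whose ranges overlapped, then Lrig1, Prom1 and Bmi1, each overlapping the next, and last Cd44 and Ascl2.

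As a share of all counts in a library, Olfm4 alone took 0.0958% to 0.234% in WT, 0.0824% to 0.162% in P-Rspo3 and 0.00005% to 0.00044% in Apc. The other 8 markers together took 0.085% to 0.112% in WT, 0.0672% to 0.0924% in P-Rspo3 and 0.241% to 0.297% in Apc. The Apc libraries thus stood above all others for the 8 and below all others for Olfm4.

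**Figure D4:**
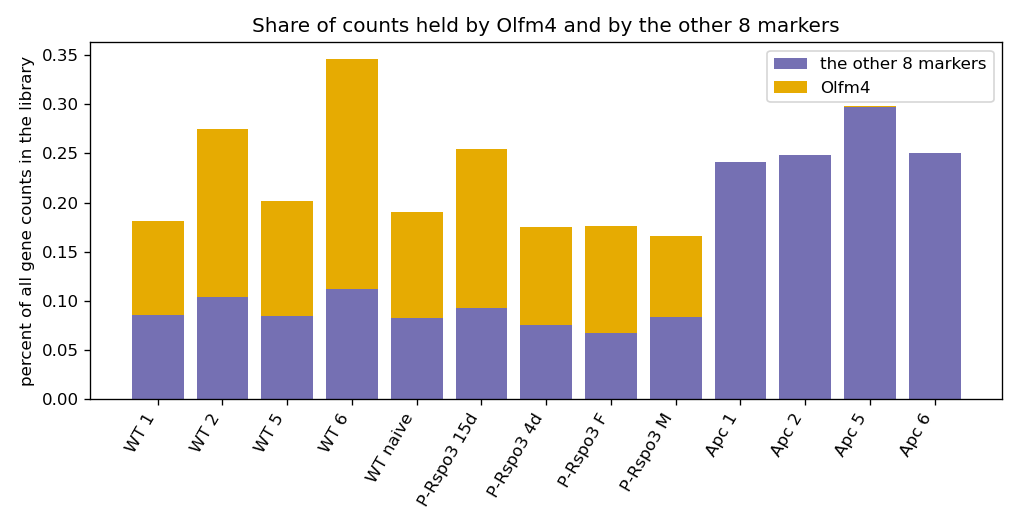
Percent of all gene counts in each library (vertical axis, starting at 0) held by Olfm4 and by the other 8 markers, stacked, 1 bar a library. Olfm4 takes 0.0824% to 0.234% in WT and P-Rspo3 libraries and cannot be seen in Apc ones, whose whole bars reach 0.241% to 0.298%.

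The next comparison asked whether the inversion moved these markers. None of the 9 was called between P-Rspo3 and WT, and none passed the adjusted p, over 15992 genes tested. Only 1 gene of all those tested was called, Rspo3 itself, which is 0.00625% of genes called higher, 0.0% called lower and 0.00625% past the adjusted p. That count depended on the fit: DESeq2 called 55 genes higher and 173 lower, and edgeR without the dox-naive library called 166 and 100. At an unadjusted p under 0.05 there were 4 markers, Cdca7, Hopx, Bmi1 and Prom1, where 13.5% of all genes stood at that level. DESeq2 also called 0 of the 9. The FPKM ranges of the groups overlapped for all 9 markers, where they were separate for 4.13% of the genes tested.

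Olfm4 had an FPKM of 475, 777, 398 and 522 in P-Rspo3 libraries 4d, 15d, M and F, of which M alone was below the lowest WT library. The log2FC was -0.37, and its 95% interval ran from -0.97 to 0.22. Ascl2 had 8.28, 11.7, 12.4 and 11.6 in these libraries, with a log2FC of -0.28 (95% interval -0.69 to 0.12). Smoc2 had 50.8, 55.8, 52.6 and 37.7, of which F was below all WT libraries, with a log2FC of -0.25 (95% interval -0.56 to 0.05). For Lrig1 the values were 27.01, 34.3, 31.2 and 23.5 and the log2FC -0.19 (95% interval -0.44 to 0.07). Library F was the lowest of the P-Rspo3 libraries for both Smoc2 and Lrig1. Cd44 had 10.4, 11.8, 12.03 and 10.8, all inside the WT range, and a log2FC of 0.03 (95% interval -0.26 to 0.32), whose sign turned when single libraries were left out.

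The 4 markers with an unadjusted p under 0.05 did not share a direction. Cdca7 had an FPKM of 45.0, 60.6, 55.0 and 46.1 and a log2FC of -0.33 (standard error 0.11, adjusted p = 0.233). Hopx had 111, 126, 133 and 114 and a log2FC of -0.20 (standard error 0.07, adjusted p = 0.272). In Cdca7 only 15d, and in Hopx only M, lay inside the WT range, and the other libraries were below it. Bmi1 had 18.7, 17.9, 16.04 and 16.8 and a log2FC of 0.35 (standard error 0.13, adjusted p = 0.279), with M alone inside the WT range of 9.80 to 16.3.

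Prom1 had the largest estimate of the 9, a log2FC of -0.64 (standard error 0.20, adjusted p = 0.215), with an FPKM of 22.6, 31.0, 21.3 and 16.2. All 4 P-Rspo3 libraries were below the flox WT libraries, which held 32.9 to 44.7, while the dox-naive library, with 22.1, lay among the P-Rspo3 values. Without that library the log2FC was -0.77 (standard error 0.17, adjusted p = 0.0451), which passes the adjusted p though not the fold threshold, and against the dox-naive library alone it was 0.01. The dox-naive WT is 1 library, so its own spread is unknown. Without it all WT libraries are of Apc flox lines, and line and inversion cannot be told apart. Lgr5 had 16.9, 32.3, 27.7 and 12.1 in P-Rspo3 and a log2FC of -0.42 (standard error 0.28, adjusted p = 0.545).

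The mutants were then compared directly, in the same medium but in different lines. Of the 9 markers, 6 were called higher in Apc than in P-Rspo3 (Ascl2, Smoc2, Cdca7, Lrig1, Prom1 and Cd44) and 1, Olfm4, lower, where 13.4% of 16456 genes were called higher and 13.3% lower. Hopx passed the adjusted p alone, a threshold that 56.4% of all genes passed, and Bmi1 did not pass it. The largest increases were those of Prom1, at a log2FC of 1.96 (standard error 0.17, adjusted p = 1.27e-05), Cd44, with 1.91 (standard error 0.13, adjusted p = 2.82e-06), and Ascl2, with 1.84 (standard error 0.16, adjusted p = 1.38e-05). Lrig1 and Smoc2 each had a log2FC near 1.5 (1.49 and 1.48), Cdca7 1.13 and Hopx 0.83 (adjusted p = 0.000155). Olfm4 had a log2FC of -9.39 (standard error 0.61, 95% interval -10.76 to -8.02), 670-fold lower, and -10.14 without Apc replicate 5. This comparison shares its Apc libraries with the first, so the values of both are not independent.

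Bmi1 was the marker whose difference depended on the scale. Its FPKM did not overlap between Apc (21.8 to 25.6) and P-Rspo3 (16.04 to 18.7), as for the other 8 markers and for 55.6% of all genes. On counts the log2FC was 0.04 (95% interval -0.12 to 0.20, adjusted p = 0.645), whereas limma on log2(FPKM + 1) gave 0.40 (adjusted p = 0.00237), where the median of all genes was 0.16.

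Other genes of the same cells were called in both directions in Apc. Of 28 further columnar cell genes, all measured, 9 were called higher and 4 lower, with a median log2FC of 0.42. Over all genes 12.2% were called higher and 14.1% lower, so the count of lower genes is near the background. The largest increase was that of Tnfrsf19, a receptor known as Troy, whose log2FC was 4.86 (standard error 0.43, adjusted p = 3.9e-06), and the negative feedback genes of the Wnt pathway Axin2 (1.97), Rnf43 (1.99) and Znrf3 (1.61) were also called higher, with Sp5, a Wnt-induced transcription factor, at 2.87. The genes called lower were Vdr, the vitamin D receptor (log2FC -4.81, standard error 0.19, adjusted p = 1.96e-08), Nrn1 (-3.79), Gkn3 (-1.67) and the water channel Aqp4 (-1.08). Nrn1 had 0, 35, 330, 650 and 160 counts in WT lines 1, 2, 5, 6 and the dox-naive library and 15 to 32 in Apc, so its groups overlapped, with WT line 1 below all Apc libraries, and the standard error of its log2FC was 1.15. Aqp4 also overlapped, with an FPKM of 17.4 to 24.9 in WT and 6.34 to 18.7 in Apc, whereas Vdr and Gkn3 did not. The most abundant in WT, the ion transporter Slc12a2, had a log2FC of -0.32 (adjusted p = 0.156).

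Of 5 further reserve or injury-associated genes, Clu, which encodes the secreted chaperone clusterin, and Mex3a, which encodes an RNA-binding protein, were called higher. Tert, the catalytic subunit of telomerase, was called lower. Among all genes tested 12.2% were called higher and 14.1% lower, and 59.1% passed the adjusted p. Clu had an FPKM of 1.72, 2.22, 0.610, 2.68 and 2.46 in WT and 35.5, 15.01, 48.4 and 69.3 in Apc. Its Apc libraries varied widely but none reached down to WT, and the log2FC was 4.21 (standard error 0.44, adjusted p = 1.26e-05). The log2FC was 2.04 for Mex3a, -1.02 for Tert, 0.67 for Msi1 (adjusted p = 0.027) and -0.81 for Krt19 (adjusted p = 0.000475), the last of which was the most abundant.

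The relatives of the markers moved in both directions. Of 10 paralogs, 9 were tested, with 3 called higher and 1 lower, where 12.2% of all genes were called higher and 14.1% lower. Prom2, the relative of Prom1, had 0 to 2 counts in WT and 285 to 977 in Apc. Prom2 passed the filter only through the Apc libraries, which favours a higher value in Apc. Olfm2 was called higher with a log2FC of 1.82, while Olfm1 had 0.55 (adjusted p = 0.109) and Olfm3 was at 0 counts in every library. Lrig3 went against Lrig1, at a log2FC of -3.80 (standard error 0.13, adjusted p = 8.57e-09). Lrig2 had 0.06, Smoc1 -1.99 (adjusted p = 0.161), Cdca7l 0.71 and the Bmi1 relative Pcgf2, the most abundant of the paralogs in WT, -0.04.

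Of 16 partner genes (the Cdca7 partner Hells, further Polycomb subunits, the ErbB receptors that Lrig1 restrains, and the ezrin, radixin and moesin proteins that anchor Cd44), 3 were called higher and 0 lower in Apc, and 6 more passed the adjusted p upward and 2 downward at smaller folds. With 12.2% of all genes called higher and 59.1% past the adjusted p, these counts are not far from the background. Phc1, a Polycomb subunit, had a log2FC of 1.25 and Rdx (radixin) one of 3.76. Msn (moesin) had 0 to 3 counts in WT and 46 to 424 in Apc. Msn and Rdx passed the filter only through the Apc libraries, which favours a higher value in Apc. Ezr (ezrin), the most abundant, had a log2FC of 0.12 (adjusted p = 0.433), and Hells passed the adjusted p alone with 0.79 (adjusted p = 0.000102).

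The Notch genes are given beside Olfm4 because of its known Notch dependence. Of 9, 2 were called higher and 3 lower, where 12.2% of all genes were called higher and 14.1% lower. Called higher were the receptor Notch2, with a log2FC of 1.40, and the ligand Jag1, with 1.05. Called lower were the ligand Dll1 (-1.18), Atoh1, the secretory cell factor that Notch represses (-1.44), and the target Hes5 (-2.99). Hes5 rested on 1 to 4 counts in Apc and 6 to 30 in WT. Hes1, the most abundant Notch target, had an FPKM of 51.9, 72.7, 62.1, 64.4 and 47.6 in WT and 59.6, 65.4, 54.8 and 49.0 in Apc. These ranges overlap, and its log2FC of -0.36 (adjusted p = 0.0304) was small beside that of Olfm4. Their part in the change of Olfm4 was not tested.

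Of 17 cell cycle genes, 2 were called higher, the replication helicase subunits Mcm2 (1.01) and Mcm4 (1.04), 14 more passed the adjusted p upward at smaller folds, and Birc5 had 0.07 (adjusted p = 0.532). The 2 calls are near the 12.2% of all genes called higher, and 59.1% of all genes passed the adjusted p. The median log2FC was 0.62, and that of Pcna, the most abundant in WT, 0.26.

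Markers of differentiated cells were largely lower in Apc. Among all genes tested 12.2% were called higher and 14.1% lower. All 10 enterocyte genes were called lower, with a median log2FC of -8.82 and the largest decrease in Apoa4, a lipoprotein of absorptive cells (log2FC -12.46, standard error 0.68, adjusted p = 1.33e-07). Fabp1, the most abundant of them in WT, had a log2FC of -10.46, close to that of Olfm4, while Anpep, a brush border peptidase, had the smallest decrease of the 10 with -1.21 and overlapping FPKM. Of 8 Paneth cell genes 5 were called lower, of which Defa24 fell most with -4.47, and 2 higher (the protease Mmp7 with 1.74 and the phospholipase Pla2g2a with 3.75), and the median was -2.33.

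Of 8 goblet cell genes 7 were called lower, where 14.1% of all genes were. Zg16 went from 151 to 1612 counts in WT to 1 to 3 in Apc. Spink4, the most abundant in WT, had a log2FC of -3.74. Of 8 enteroendocrine genes 6 were called lower, and Sst was at 0 counts in all Apc libraries against 130 to 482 in WT, at least 149.6-fold lower against a floor of 3 counts per library. Sst passed the filter only through the WT libraries, which favours a lower value in Apc. Gip, the most abundant in WT, had a log2FC of -7.85. Of 6 tuft cell genes 4 were called lower, and Trpm5, the most abundant in WT, had a log2FC of -1.78 on counts. Its FPKM overlapped between the groups, with 1.77 to 2.53 in Apc and 1.75 to 3.58 in WT and a ratio of the means of 0.854, and the cause of the gap between the scales was not tested. The medians were -3.67, -4.54 and -2.69, the last being -1.98 with genes at or under 3 counts set to their bound. Among the 7 epithelial genes 1 was called higher (Krt18, 1.11) and 2 lower (Cdx1, -4.18, and Vil1, -1.26), beside 12.2% and 14.1% of all genes. Krt8, the most abundant in WT, had a log2FC of -0.31 (adjusted p = 0.0233).

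**Figure D5:**
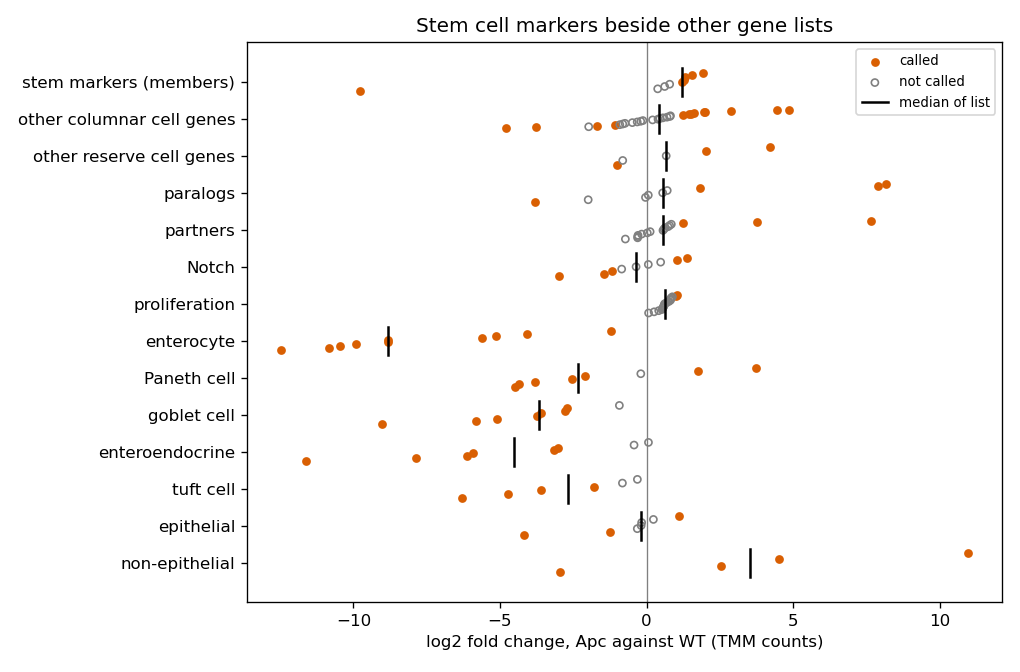
log2 fold change on TMM counts, Apc against WT (horizontal axis), for each tested gene of the markers and of 13 other lists, filled where called, with a bar at the median. Points of genes with 0 to 3 counts per library in either group depend on the prior count. Olfm4, at -9.78, lies apart from the other 8 markers and among the enterocyte genes.

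Markers of cells outside the epithelium were low beside the epithelial genes and summed higher in Apc than in WT. They summed, over 10 genes, to an FPKM of 1.08 to 1.75 in WT, 0.819 to 1.63 in P-Rspo3 and 5.06 to 12.5 in Apc, against 1560 to 1886 for the epithelial genes in Apc. The most abundant was Cd68, a lysosomal protein of macrophages, with 3.65 to 10.1 in Apc and 0.539 to 1.35 in WT. Cdh5, an endothelial cadherin, had a mean FPKM of 1.53 in Apc against 0 in WT, Pdgfra, of fibroblasts, 0.211 against 0.00736 and Acta2, of smooth muscle, 0.0651 against 0.0124. The means of Col1a1 were 0.0198 and 0.00779, and those of Col3a1 0.00983 and 0. The mean was lower in Apc than in WT for Ptprc, of all leukocytes (0.00367 against 0.109), Cd3e (0.0107 against 0.0226), Pecam1 (0.0623 against 0.322) and Des (0 against 0.00144). Of the 10 genes 4 were tested, with Cd68, Pdgfra and Cdh5 called higher and Pecam1 lower. Over all genes 12.2% were called higher and 14.1% lower. Pdgfra and Cdh5 passed the filter only through the Apc libraries, which favours a higher value in Apc. Cdh5 was at 0 counts in WT and 217 to 372 in Apc, at least 71.9-fold higher, while Pecam1, of the same cell type, had a log2FC of -2.95. Their part in the levels of the markers was not tested.

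In P-Rspo3 against WT none of the genes in these lists was called. The median log2FC was -0.17 over the columnar genes, -0.22 over the reserve genes and 0.06 over the cell cycle genes, beside -0.25 over the 9 markers and 0.004 over all genes. The medians farthest from 0 were those of the tuft cell genes (-0.69) and the enterocyte genes (-0.49), and the goblet cell genes had the highest (0.21). Beside the 9 markers, 128 listed genes were tested here, of which 22 had an unadjusted p under 0.05, as did 13.5% of all genes. Of these listed genes, 0 passed the adjusted p in edgeR. DESeq2 called 4 of them lower, where it called 173 of all 15992 genes lower. Tnfrsf19 had 6, 37, 22 and 42 counts in P-Rspo3 libraries 4d, 15d, M and F, at least 228 in each flox WT library and 64 in the dox-naive library, at a log2FC of -3.50 (standard error 0.63, adjusted p = 0.0957). Sp5 had 15, 40, 92 and 83 counts, against 213 to 312 in flox WT and 133 in the dox-naive library, at a log2FC of -2.04 (adjusted p = 0.124). The P-Rspo3 libraries of both genes lay below all WT libraries, and the dox-naive library was the WT library nearest to them. FPKM ranges of P-Rspo3 and WT were separate for 4.13% of all genes tested. Fstl1 had a log2FC of -3.51 (adjusted p = 0.19) on at most 10 counts in P-Rspo3, and Gkn3 one of -1.97 (adjusted p = 0.103). Aqp4, of the same list, had a log2FC of 0.64 (adjusted p = 0.13), with an FPKM of 26.3 to 43.5 in P-Rspo3, all above the 17.4 to 24.9 of WT. Without the dox-naive library, Tnfrsf19, Sp5 and Gkn3 were called lower. The WT libraries of that fit are all of Apc flox lines, so line and inversion cannot be told apart in it.

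For each marker, the gene whose profile over the 13 libraries lay closest was found among 12561 genes with a mean of at least 1 CPM, as the root mean square difference of centred log2 TMM-normalized CPM (counts scaled to library size). The closest to Olfm4 was Sis (0.75 log2 units), the sucrase-isomaltase of enterocytes, and this was the widest of the 9 distances. The closest to Smoc2 was another marker, Lrig1 (0.12). They were Cdc42ep1 for Ascl2 (0.18), Cuedc2 for Cdca7 (0.09), Ago1 for Lrig1 (0.11) and 9530068E07Rik for Hopx (0.11). For Bmi1 the closest was Tmem29 (0.09), for Prom1 Bbs7 (0.19) and for Cd44 Btbd19 (0.19). On log2(FPKM + 1) only Cdc42ep1 for Ascl2 and Lrig1 for Smoc2 were again the closest, so the other 7 names depend on the scale.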

How the data were processed

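RNA of 15 organoid cultures was sequenced, and 2 libraries whose title and genotype conflict entered no group. The authors used STAR and GRCm38 for alignment, and the deposited counts (HTSeq 0.6.0, whole numbers, not normalized) and the deposited FPKM (Cufflinks 2.2.1) are theirs. The annotation release and strand setting are not given in the sources used here. Symbols and coordinates of 42462 genes came from GENCODE.

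For each pair of groups a separate edgeR 4.0.16 fit (R 4.3.3, TMM, glmQLFit and glmQLFTest at defaults) took in genes whose FPKM reached 0.1 in 4 or more libraries. A gene near 0 in 1 group could thus pass through the other group alone, which favours 1 direction of call. A call needed an adjusted p (Benjamini-Hochberg) under 0.05 with an absolute log2FC above 1. Intervals are t intervals of the fit. The markers and gene lists were chosen with earlier results of these data known. Named genes are the markers, Lgr5, the called gene with the largest increase and decrease and the most abundant gene of each list by mean FPKM over the grouped libraries, any gene of the columnar, reserve and paralog lists, and the closest profile to each marker. Rspo3, Apc and the remaining genes of the other lists were named after their values were seen. Some genes that this rule names are not reported here.

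In simulated counts with 200 genes changed 4-fold, 190 were recovered with 9 false calls among 16749 genes for Apc against WT, 190 with 7 among 15992 for P-Rspo3 against WT and 189 with 10 among 16456 for Apc against P-Rspo3. The smallest chi-square per gene between replicates was 22.4, far above sampling noise. Floors cover counting error only. Alternatives were DESeq2 1.42.0, its size factors, the newer form of the edgeR test, other filters, all groups in 1 fit, limma 3.58.1 on log2(FPKM + 1) and log2(FPKM + 0.1), each library left out, flox WT only, the conflicting libraries added by genotype, the line as a replicate block and, chosen after seeing the data, the dox-naive library as the only control. By their labels, Apc and WT libraries of 1 number are 1 line; across genes, their deviations from the group means correlated with a median r of 0.16 (0.08 to 0.21 over 4 pairs), against -0.06 over the 12 other pairs.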

Additional observations from a re-analysis of the deposited data

Results flagged for a closer look

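Of 27 groups of libraries examined (9 markers in 3 groups), 1 held a library far from the others, where chance alone gives about 1 in 20. The FPKM of Hopx was 305.3 in Apc replicate 5 and 220.7 to 222.8 in the other 3 Apc libraries. Without it the log2FC of Hopx against WT was 0.52 and against P-Rspo3 0.72, and both still passed the adjusted p.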

How the results depend on the processing

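The number of markers called was 6 for Apc against WT, 0 for P-Rspo3 against WT and 7 for Apc against P-Rspo3 under the alternatives run, except that limma on FPKM called 7 for Apc against WT, Cdca7 being added, and the adjusted p alone called 9 for Apc against WT and 8 for Apc against P-Rspo3. With the line as a replicate block the paired fit of Apc against WT also called 6, with Olfm4 at -10.01 and 1979 genes higher and 2240 lower over all genes, and changed no call of a marker. The log2FC of Cdca7 in Apc against WT was 1.10 on log2(FPKM + 1) and 1.11 on log2(FPKM + 0.1), where it is called. With limma on these scales the calls over all genes were 1415 higher and 1132 lower, and 2570 and 1717, for Apc against WT, and 1429 and 1122, and 2594 and 1636, for Apc against P-Rspo3, against 2209 and 2183 on counts. The cause was not tested. For P-Rspo3 against WT, Cd44 turned sign with the conflicting libraries added (-0.0323) and over the fits that each left out 1 library (-0.0789 to 0.0823). Against the dox-naive library alone, a fit in which that library is assumed to vary like the others, Cd44 was -0.18, Ascl2 0.0332, Olfm4 0.0307 and Prom1 0.0135, none near the threshold.

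The genes called over all those tested between P-Rspo3 and WT went from 1 higher and 0 lower to 2 and 4 with the newer form of the test, 2 and 11 with no filter, 11 and 63 with all groups in 1 fit, 55 and 173 with DESeq2, 2 and 3 or 2 and 2 with limma and 1 and 3 against the dox-naive library alone. Over the fits that left out 1 library they ranged from 1 to 166 higher and 0 to 100 lower, the most without the dox-naive library, then 3 and 7 without P-Rspo3 replicate M and 1 and 9 without WT replicate 1. The listed genes called went from 0 to 4 with DESeq2, and to between 0 and 3 over the fits that left out 1 library, the 3 being without the dox-naive library. None of these was a marker. For the closest profiles on log2(FPKM + 1), the distances of the genes named on counts were 0.54 for Olfm4, 0.11 for Cdca7, 0.15 for Lrig1, 0.12 for Hopx, 0.20 for Bmi1, 0.39 for Prom1 and 0.17 for Cd44. At these depths Olfm4 in Apc rests on 18 to 148 counts.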

Other observations

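The 2 libraries outside the groups, titled LIPO and NAIVE_F, gave these values. LIPO, whose genotype is given as dox-naive, had 0 counts of Rspo3, and NAIVE_F, whose genotype is given as P-Rspo3, had 729. The FPKM of Olfm4 was 419 in LIPO and 448 in NAIVE_F, and that of Hopx 127 and 107. Ascl2 had 10.3 in LIPO and 5.99 in NAIVE_F, the latter below all 13 grouped libraries, and Prom1 had 16.6 and 38.6. For Cd44 the values were 12.1 and 9.20, for Bmi1 13.3 and 11.6, for Smoc2 45.1 and 59.5, for Cdca7 54.4 and 46.5 and for Lrig1 24.4 and 29.5.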
